A study of Sus scrofa with 16 samples.

Results

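The enzymes that carry glucose to pyruvate and lactate, and those that turn the citric acid cycle, were followed in the left ventricle of pigs with and without a myocardial infarction. A list of 45 genes was drawn up by pathway step, from the glucose carriers to the enzymes that move malate and aspartate between mitochondria and cytosol. Of these, 39 had a probe set whose platform annotation gave that gene as its only symbol, out of 6765 such genes on the array. HK2, ALDOA, PGAM1, SLC16A1 and ACLY had no such probe set and are not analysed here, and PKM2 is an older name of PKM, which was measured. Where a gene had several probe sets, the brightest by its mean over all animals stood for it.

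The tissue came from 16 Yorkshire x Landrace pigs aged 2 to 3 months, 8 infarcted (MI) and 8 with sham surgery (Sham), sampled 3 weeks after the operation. Each group had 4 animals labelled female and 4 labelled male, and males had been neutered. The labels do not state where in the left ventricle the samples were cut, and infarcted, border and remote muscle cannot be told apart. Each animal gave 1 Affymetrix array, with values on a log2 scale, so a difference of 1 is a doubling of signal; signals of different probe sets are not compared with each other.

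Glycolysis splits glucose into pyruvate in the cytosol and yields a little ATP without oxygen. Pyruvate then leaves as lactate or enters mitochondria as acetyl-CoA, which the citric acid cycle oxidises while it loads the carriers that feed the respiratory chain. The adult heart draws most of its ATP from fatty acids and takes up glucose and lactate beside them, and a move toward glucose is a known feature of hypertrophied and failing hearts. Several steps have isoforms that differ between muscle and other tissues, such as PFKM against PFKL and PFKP, and ENO3 against ENO1.

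Between MI and Sham animals, none of the 39 measured genes of the list passed the test. Of the 39 genes 0 passed in limma at an adjusted p under 0.05, where 10.5% of all 23999 probe sets passed (5.39% higher and 5.14% lower in MI). At an unadjusted p under 0.05 there were 2 of 39 (5.13%), SLC2A1 and SLC16A3, against 23.6% of all probe sets. The differences ran from -0.34 to 0.31, with 14 genes higher and 25 lower in MI, a median of -0.017 and a median size of 0.068. Over all probe sets the median size was 0.11. With the array set as a block 1 of 39 genes passed (12.9% of all probe sets), in set A alone 0 (9.68%), without MI 7 and with the block 2 (11.5%), and with the animal number as a block 1 (9.98%). In 0 of the 39 genes were the 8 MI animals clear of the 8 Sham animals, as they were in 2.96% of all probe sets.

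The intervals say how large a difference could still be present. For 34 of 39 genes (87.2%) the 95% confidence interval of the difference lay within 1.5-fold in either direction, as it did for 87.02% of all probe sets. The exceptions were SLC2A1, PGM1, SLC16A3, IDH3A and OGDH. The half-width of the interval ran from 0.10 for the tightest gene to 0.49 for the widest, with a median of 0.20. In bulk tissue, fewer cells of a type and less RNA per cell cannot be told apart.

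**Figure D1:**
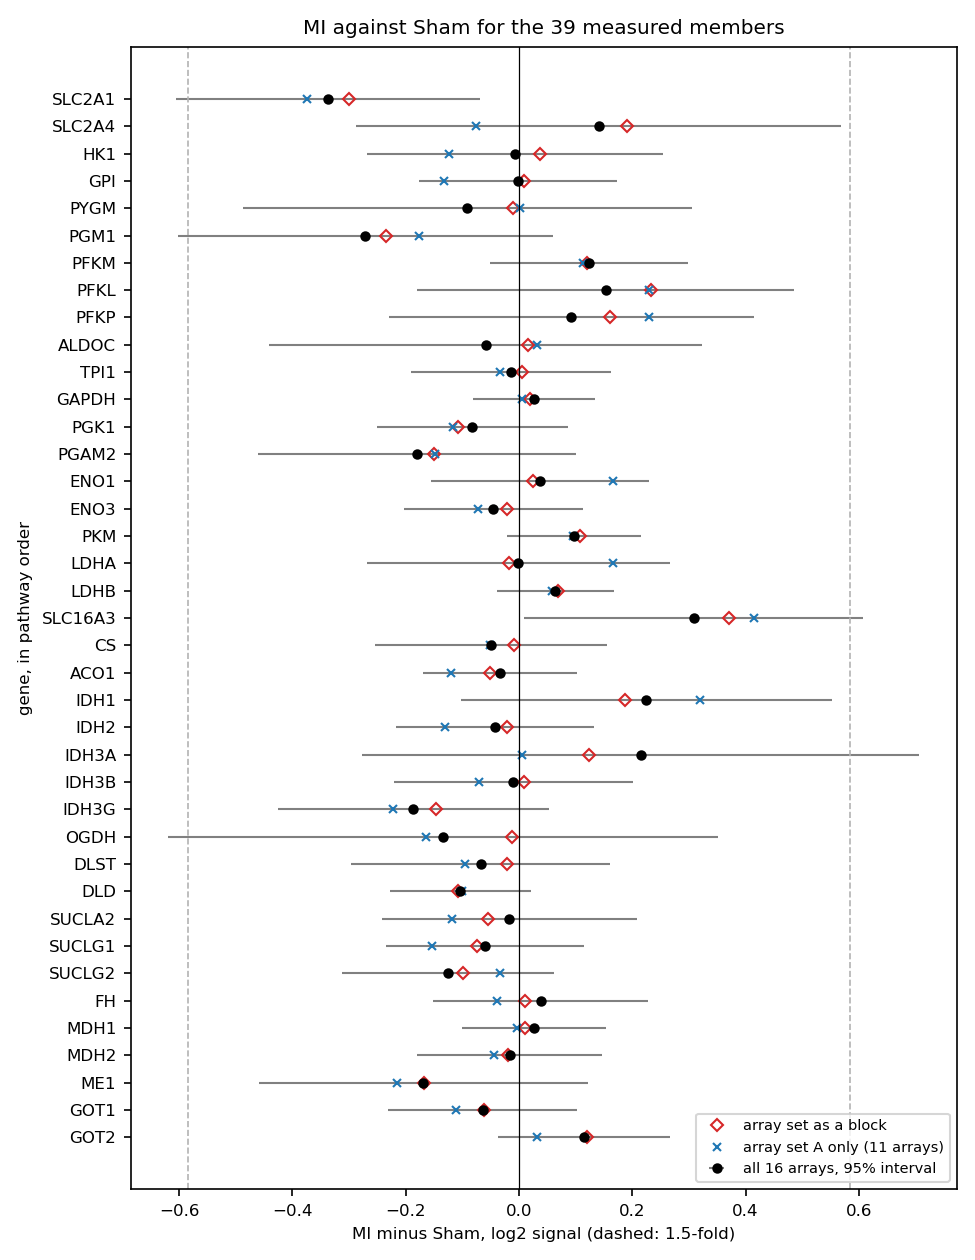
Difference between MI and Sham (log2 signal, x axis) for the 39 genes in pathway order (y axis), as black points with 95% confidence intervals from all 16 arrays; red diamonds are the fit with array set as a block, blue crosses set A alone, and dashed lines mark 1.5-fold. Only the intervals of SLC2A1, PGM1, SLC16A3, IDH3A and OGDH reach beyond 1.5-fold, and those of SLC2A1 and SLC16A3 leave out 0.

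The labels name no batches, but the spiked controls separate 2 sets of arrays. The mean log2 signal of the poly-A controls was lower than that of the hybridisation controls by 1.88 ± 0.32 on 11 arrays (set A) and by 4.57 ± 0.45 on 5 arrays (set B; SD over arrays), a gap by which the sets are defined. Set B held 2 MI females (MI 7 and MI 8), 1 Sham female (Sham 7), 2 Sham males (Sham 6 and Sham 8) and 0 MI males. MI 7, labelled female, had a signal of 9.51 for the chromosome Y gene EIF1AY, where the other females lay between 3.00 and 3.51. The heart label was checked against its markers: all 12 measured cardiomyocyte genes were above background, taken as the highest value (4.99) among 23 control probe sets for sequences foreign to the pig. Their summed level spanned 17.42 to 17.55 in MI and 17.46 to 17.56 in Sham on the log2 scale, and 0 of the 12 passed (0 at an unadjusted p under 0.05).

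More of these genes passed between the array sets than between MI and Sham. In a fit with set, group and sex, 11 of the 39 genes (28.2%) differed between the sets, all 11 higher in set B, where 22.1% of all probe sets differed. OGDH, the first subunit of the 2-oxoglutarate dehydrogenase complex, had a mean of 9.64 ± 0.20 over set A (SD) and 10.63 ± 0.18 over set B. The 5 set B arrays lay above all 11 set A arrays for 3 of the 39 genes (OGDH, PYGM and DLST), where the sets did not overlap in 6.35% of all probe sets. PYGM, PFKL, ALDOC and PFKP were higher in set B by 0.74, 0.68, 0.68 and 0.56, and SLC16A3, DLST, SLC2A1, HK1, IDH3G and CS by 0.31 to 0.50. Actin control probe sets at the 3' end exceeded those at the 5' end by 2.61 ± 0.23 (set A) and 1.47 ± 0.11 (set B). For the GAPDH control probe sets this excess was the smaller in set A, 0.15 ± 0.041 against 0.26 ± 0.13 in set B. The part of either in the gene differences was not tested. With the set as a block 34 of the 39 differences between MI and Sham kept their sign, as did 33 in set A alone.

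**Figure D2:**
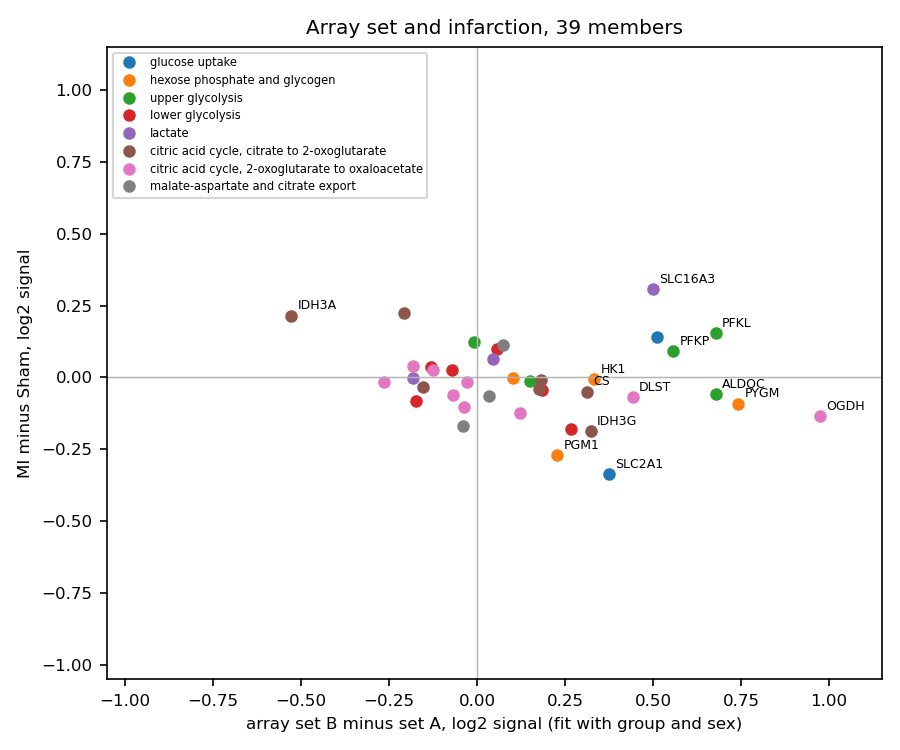
Each point is 1 of the 39 genes, with its difference between array sets on the x axis (set B minus set A, fitted with group and sex) and between MI and Sham on the y axis, both in log2 signal on the same scale and coloured by pathway step. Along the x axis the points reach from -0.53 (IDH3A) to 0.97 (OGDH), while along the y axis they stay between -0.34 and 0.31.

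Glucose enters heart muscle through SLC2A1 (GLUT1), the carrier of basal uptake, and SLC2A4 (GLUT4), which insulin and contraction bring to the cell surface. SLC2A1 ran from 6.75 to 7.55 in MI (median 7.14) and from 7.08 to 8.11 in Sham animals (median 7.47). The level was 7.17 ± 0.27 in MI and 7.51 ± 0.32 in Sham (SD, n = 8 each), a difference of -0.34 (95% interval -0.61 to -0.069, adjusted p = 0.107) or 0.792-fold. Only 1 of 8 MI animals lay above the Sham mean, but the groups overlapped and 2 MI animals lay below the lowest Sham animal. The difference was -0.30 with the set as a block (adjusted p = 0.0950) and -0.38 in set A (0.0945), and over 30 alternatives the adjusted p by limma ran from 0.0293 to 0.845. SLC2A1 passed with array weights and with the animal number as a block, and in no other alternative.

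SLC2A4 ran from 6.79 to 8.50 in MI (median 7.58) and from 7.07 to 7.90 in Sham animals (median 7.58). It differed by 0.14 (95% interval -0.29 to 0.57, adjusted p = 0.742); the SD was 0.58 in MI and 0.30 in Sham. MI 6, MI 7 and MI 8 lay above every Sham animal and MI 5 below every one. SLC2A4 (Entrez 396754) lies on chromosome 12 from 52628746 to 52634965 of the pig assembly Sscrofa11.1, and 2 further probe sets on the array carry its name. The second brightest differed by 0.024 (adjusted p = 0.903). The third, the dimmest, ran from 5.53 to 6.23 in MI (median 5.93) and from 5.29 to 5.61 in Sham (median 5.44), and was higher in MI by 0.50 (adjusted p = 0.00283). The 3 probe sets of SLC2A4 thus disagreed, and of the 15 other probe sets of the 39 genes this was the only 1 that passed. Set B exceeded set A by 0.51 for the brightest, 0.038 for the second and 0.071 for the dimmest.

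**Figure D3:**
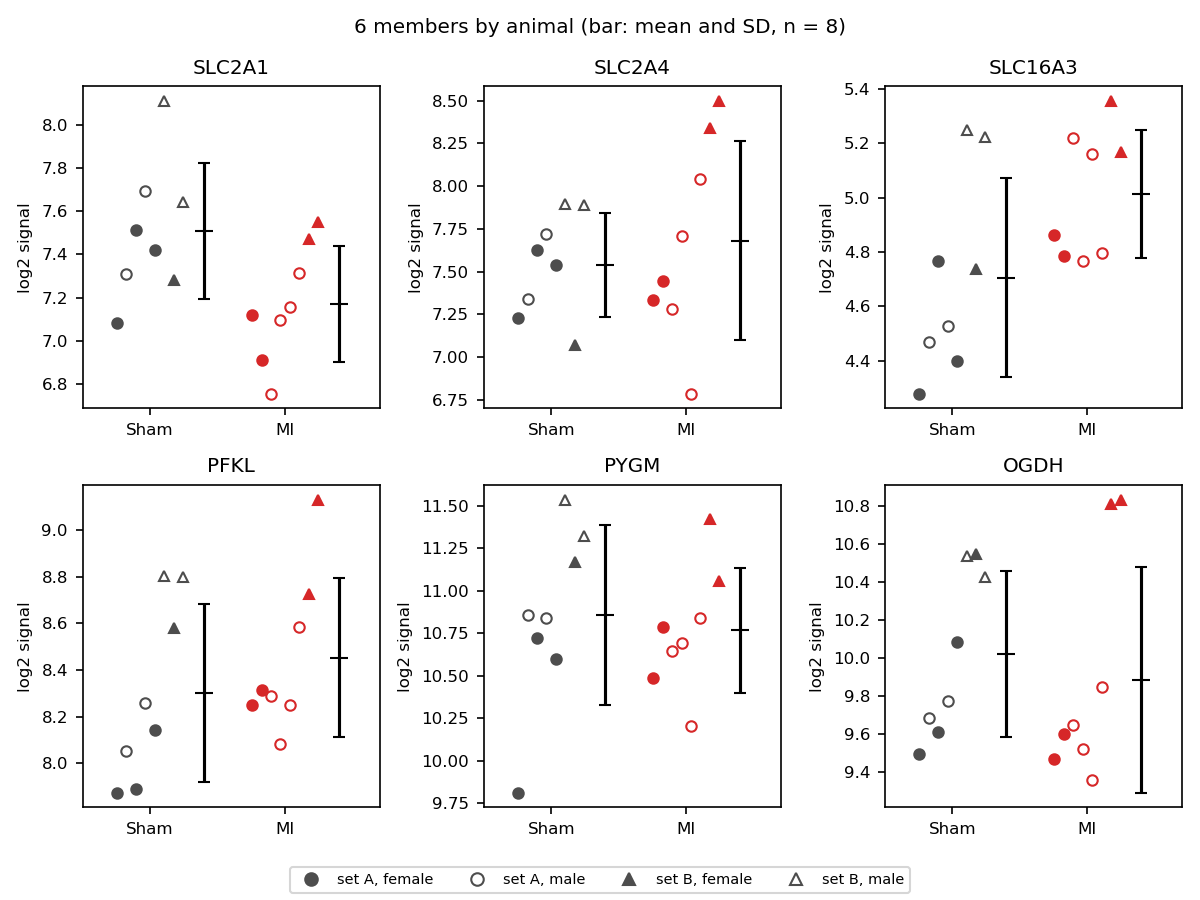
Log2 signal (y axis) of SLC2A1, SLC2A4, SLC16A3, PFKL, PYGM and OGDH in every Sham and MI animal; circles are array set A, triangles set B, filled symbols females and open symbols males by the labels, and bars give the mean and SD of 8 animals. The Sham and MI animals overlap in all 6 panels, and in the OGDH panel all 5 triangles lie above all 11 circles.

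Once inside, glucose is phosphorylated by hexokinase (HK1) and isomerised by GPI, while glycogen is cut by muscle glycogen phosphorylase (PYGM) and its product converted by PGM1. All 4 measured genes had a lower mean in MI and 0 passed (0 at an unadjusted p under 0.05). PGM1 ran from 10.48 to 11.40 in MI (median 11.14) and from 10.77 to 11.57 in Sham animals (median 11.36). PGM1 differed by -0.27 (95% interval -0.60 to 0.059, adjusted p = 0.319), and only 1 MI animal exceeded the Sham mean. PYGM varied most of these among Sham animals, from 9.81 in Sham 1 to 11.54 in Sham 6 (SD 0.53), and differed by -0.091 (adjusted p = 0.830). Its other 3 probe sets differed by -0.066, 0.026 and 0.20. HK1 was 11.47 ± 0.32 in MI and 11.47 ± 0.14 in Sham and GPI was 11.38 ± 0.18 in MI and 11.38 ± 0.12 in Sham (adjusted p = 0.995), with MI animals on both sides of the Sham range for each; HK1 differed by -0.0067 (adjusted p = 0.983).

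Phosphofructokinase commits sugar to glycolysis; PFKM is the muscle subunit, PFKL the liver subunit and PFKP the platelet subunit. Aldolase (ALDOC is the brain isoform) and TPI1 then make triose phosphates. Of these 5 genes 3 had a higher and 2 a lower mean in MI, and 0 passed (0 at an unadjusted p under 0.05). PFKM ran from 11.77 to 12.25 in MI (median 12.04) and from 11.72 to 12.14 in Sham animals (median 11.91). PFKM differed by 0.12 (95% interval -0.052 to 0.30, adjusted p = 0.408), and 6 of 8 MI animals exceeded the Sham mean. PFKL ran from 8.08 to 9.13 in MI (median 8.30) and from 7.87 to 8.80 in Sham animals (median 8.20). PFKL differed by 0.15 (95% interval -0.18 to 0.49, adjusted p = 0.623) over all arrays, by 0.23 with the set as a block (adjusted p = 0.0741) and by 0.28 without MI 7 and with the block, where it passed (adjusted p = 0.0428; 0.0428 to 0.829 over 30 alternatives). The set B arrays held the 3 highest Sham values of PFKL and the 2 highest MI values. PFKP differed by 0.092 (adjusted p = 0.780), ALDOC by -0.059 (adjusted p = 0.891) and TPI1 by -0.014 (adjusted p = 0.947).

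The lower part of the pathway pays back ATP and NADH. GAPDH oxidises the triose, PGK1 makes ATP, PGAM2 (the muscle mutase) and the enolases ENO1 and ENO3 (the muscle form) rearrange the product, and PKM makes pyruvate. These 6 genes had the least spread of the glycolytic steps, with a median SD of 0.11 in Sham animals against 0.37 for the upper steps, and 0 passed (0 at an unadjusted p under 0.05). GAPDH was 14.41 ± 0.074 in MI and 14.39 ± 0.061 in Sham, with a difference of 0.026 (95% interval -0.081 to 0.13, adjusted p = 0.818). Its 9 control probe sets, left out of the test, differed between MI and Sham by -0.077 to 0.038. The other tested probe sets of GAPDH spread more widely. From brighter to dimmer they differed by -0.034, -0.14, 0.25 and -0.14, and the dimmest lay below background. The one higher by 0.25 had a 95% interval of 0.065 to 0.44 and did not pass (adjusted p = 0.0840 by limma).

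PKM ran from 7.81 to 8.12 in MI (median 7.97) and from 7.78 to 7.98 in Sham animals (median 7.90). PKM differed by 0.098 (95% interval -0.020 to 0.22, adjusted p = 0.314); 7 of 8 MI animals exceeded the Sham mean. Its dimmer probe set differed by 0.21 (adjusted p = 0.114). The array's names do not separate the PKM1 and PKM2 splice forms. PGAM2 ran from 10.80 to 11.68 in MI (median 11.48) and from 11.10 to 12.04 in Sham animals (median 11.58). PGAM2 differed by -0.18 (95% interval -0.46 to 0.10, adjusted p = 0.461). PGK1, on chromosome X from 62187472 to 62210321, differed by -0.082 (adjusted p = 0.596), ENO3 by -0.045 (adjusted p = 0.778) and ENO1 by 0.037 (adjusted p = 0.862). For ENO3, 4 of 8 MI animals lay below the lowest Sham animal and 1 above the highest, and the groups overlapped.

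Lactate dehydrogenase turns pyruvate into lactate and back; LDHA is the form of glycolytic muscle and LDHB the form of the heart. SLC16A3 (MCT4) is a monocarboxylate carrier known for lactate export from glycolytic cells. SLC16A3 ran from 4.77 to 5.36 in MI (median 5.01) and from 4.28 to 5.25 in Sham animals (median 4.63). All 8 MI animals lay above the Sham mean, 1 lay above every Sham animal, and the difference was 0.31 (95% interval 0.0089 to 0.61, adjusted p = 0.196). With the set as a block it was 0.37 and passed (adjusted p = 0.0189), as it did without MI 7 and with the block (0.36, 0.0409); within set A it was 0.42 (0.0536), and over 29 alternatives the adjusted p reached 0.761. SLC16A3 (Entrez 100158243, chromosome 12 from 796882 to 807480) lay below the background of 4.99 in 6 of 8 Sham and 4 of 8 MI animals, so the size of these differences is not well measured, and was the only 1 of the 39 outside the 16000 brightest probe sets.

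LDHB was 14.04 ± 0.049 in MI and 13.97 ± 0.074 in Sham (SD, n = 8 each), and 7 of 8 MI animals lay above the Sham mean. Its difference was 0.064 (95% interval -0.040 to 0.17, adjusted p = 0.483), among the tightest of all. LDHA ran from 10.06 to 11.11 in MI (median 10.52) and from 10.18 to 10.91 in Sham animals (median 10.61). LDHA differed by -0.0012 (95% interval -0.27 to 0.27, adjusted p = 0.998), and by 0.17 in set A and -0.49 in set B. The Entrez identifier given for the LDHB probe set (100621540) maps to a locus of 1280 bases on chromosome 2 from 12988754 to 12990033, while the annotation names a second LDHB of 20287 bases on chromosome 5 from 51810932 to 51831218. Which of these loci the probe set measures cannot be told apart here.

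Citrate synthase (CS) opens the citric acid cycle, aconitase makes isocitrate, and the isocitrate dehydrogenases make 2-oxoglutarate. IDH3A, IDH3B and IDH3G form the NAD-dependent mitochondrial enzyme, IDH2 is its NADP-dependent mitochondrial counterpart, and IDH1 and ACO1 are the cytosolic enzymes. Of the 7 genes 2 had a higher and 5 a lower mean in MI, and 0 passed (0 at an unadjusted p under 0.05). CS was 12.79 ± 0.20 in MI and 12.84 ± 0.18 in Sham, a difference of -0.050 (95% interval -0.25 to 0.15, adjusted p = 0.818). Its second probe set went the other way, by 0.082 (adjusted p = 0.642 by limma). IDH3G ran from 9.70 to 10.51 in MI (median 10.03) and from 9.99 to 10.58 in Sham animals (median 10.30). IDH3G differed by -0.19 (95% interval -0.43 to 0.053, adjusted p = 0.351), with 3 MI animals below every Sham animal and 5 of 8 below the Sham mean. IDH1 ran from 7.71 to 8.82 in MI (median 8.07) and from 7.48 to 8.32 in Sham animals (median 8.06). IDH1 differed by 0.22 (95% interval -0.10 to 0.55, adjusted p = 0.425), with 3 MI animals above every Sham animal.

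IDH3A had the widest interval of the 39 genes, -0.28 to 0.71 around 0.22. Sham 7 stood at 9.34, where the other Sham animals lay between 10.84 and 11.35 and the MI animals between 10.85 and 11.43. The Sham 7 array had the highest 3' excess of the GAPDH controls (0.49, with MI 8 next at 0.23), and its part was not tested. The second probe set of IDH3A differed by 0.12 (adjusted p = 0.541) and ran down only to 10.43 in Sham. ACO1 differed by -0.033 (adjusted p = 0.818) with an SD of 0.053 in MI, IDH2 by -0.042 (adjusted p = 0.821) and IDH3B by -0.010 (adjusted p = 0.967). The dimmer probe sets of ACO1 differed by -0.17 and -0.069 (adjusted p = 0.485 and 0.856 by limma).

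From 2-oxoglutarate on, OGDH, DLST and DLD form the dehydrogenase complex that makes succinyl-CoA, and SUCLG1 with either SUCLA2 or SUCLG2 makes ATP or GTP from it. FH then makes malate and MDH2 oxaloacetate, with MDH1 as the cytosolic malate dehydrogenase. Of these 9 genes 2 had a higher and 7 a lower mean in MI, and 0 passed (0 at an unadjusted p under 0.05). DLD ran from 11.49 to 11.68 in MI (median 11.61) and from 11.59 to 11.90 in Sham animals (median 11.65). DLD, the subunit that pyruvate dehydrogenase shares, differed by -0.10 (95% interval -0.23 to 0.021, adjusted p = 0.311); all 8 MI animals lay below the Sham mean and 3 below every Sham animal. SUCLG2 ran from 9.31 to 9.69 in MI (median 9.46) and from 9.14 to 9.82 in Sham animals (median 9.64). SUCLG2 differed by -0.13 (95% interval -0.31 to 0.062, adjusted p = 0.438) and SUCLG1 by -0.060 (adjusted p = 0.728). SUCLA2 differed by -0.017 (adjusted p = 0.948), FH by 0.038 (adjusted p = 0.853), MDH1 by 0.027 (adjusted p = 0.844) and MDH2 by -0.017 (adjusted p = 0.929). DLST differed by -0.068 (adjusted p = 0.770) and OGDH by -0.13 (adjusted p = 0.790).

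The malate-aspartate shuttle carries reducing power from glycolysis into mitochondria through MDH1, MDH2 and the aspartate aminotransferases GOT1 (cytosolic) and GOT2 (mitochondrial), and ME1 makes cytosolic NADPH from malate. GOT2 ran from 12.57 to 12.91 in MI (median 12.65) and from 12.38 to 12.75 in Sham animals (median 12.62). GOT2 differed by 0.11 (95% interval -0.037 to 0.27, adjusted p = 0.368) and was over the Sham mean in 7 of 8 MI animals. GOT1 differed by -0.064 (adjusted p = 0.693) and was over it in 2 of 8. ME1 ran from 5.08 to 6.35 in MI (median 5.32) and from 5.39 to 5.88 in Sham animals (median 5.56). ME1 differed by -0.17 (adjusted p = 0.514); 4 MI animals lay below every Sham animal, while MI 5 was the highest of all 16.

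**Figure D4:**
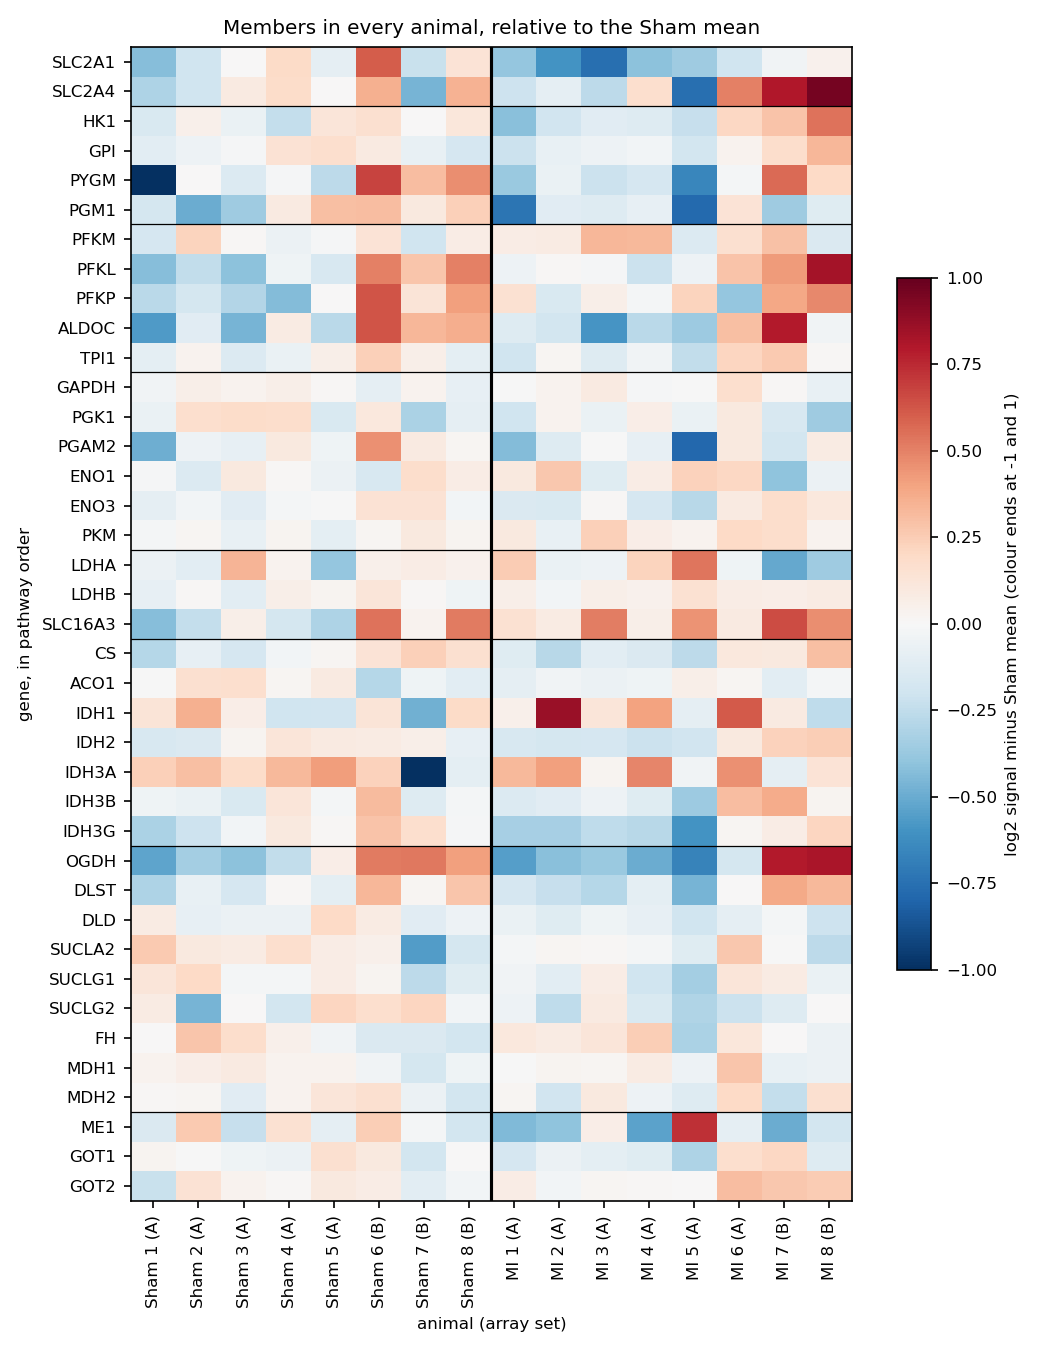
Each cell is 1 gene (rows, in pathway order with lines between steps) in 1 animal (columns, Sham left and MI right, array set in brackets), coloured by log2 signal minus the Sham mean of that gene. MI 5 is low in 30 of 39 genes and Sham 1 in 29, Sham 6 is high in 34, and the set B columns are red at OGDH, PFKL, PFKP and PYGM in both groups.

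Animals differed from each other more than the groups did. Averaged over the 39 genes, each taken relative to its Sham mean, the MI animals lay at -0.013 ± 0.12 and ran from -0.18 (MI 5) to 0.12 (MI 7), and the Sham animals ran from -0.15 (Sham 1) to 0.20 (Sham 6). These means moved with the array set: they were -0.050 ± 0.082 over the 11 arrays of set A, which holds MI 5 and Sham 1, and 0.090 ± 0.094 over the 5 of set B, which holds MI 7 and Sham 6. MI 5 had 30 of 39 genes below the Sham mean, 16 of them by more than 0.25. Sham 1 had 29 below it, 12 of them by more than 0.25, and MI 1 and MI 2, also in set A, had 27 each. In MI 5 PGAM2 was lower by 0.79, PGM1 by 0.78, SLC2A4 by 0.75, OGDH by 0.66 and PYGM by 0.66, while ME1, LDHA and SLC16A3 were higher by 0.73, 0.54 and 0.45. MI 6, also in set A, had 31 of 39 genes above the Sham mean. These are values of single animals with 1 array each, and no test was made of them.

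Isoforms of the same step were then compared as log ratios within each array, which a shift of all log values on an array leaves as they are. The ratios still differed between the array sets. Mean set B minus mean set A ran from -0.67 (PFKM to PFKL) to -0.0083 (GOT1 to GOT2). It was -0.57 for PFKM to PFKP, -0.44 for IDH1 to IDH2 and -0.083 for SLC2A1 to SLC2A4. Of 13 pairs listed, 9 had both genes measured, and 0 of 9 passed an exact two-sided permutation test over the splits of 16 animals after Benjamini-Hochberg adjustment over the 9 (2 at an unadjusted p under 0.05; the smallest p that 8 against 8 allows is 0.000155). Only the change in a ratio between groups is read, since its level depends on the probe sets. The ratio of SLC2A1 to SLC2A4 ran from -0.95 to 0.37 in MI (median -0.58) and from -0.24 to 0.22 in Sham (median -0.070). It was -0.51 ± 0.42 in MI and -0.031 ± 0.17 in Sham, a difference of -0.48 (exact permutation p = 0.0129, adjusted p = 0.0580). All MI animals except MI 5 lay below the Sham mean. Of the 16 fits that left out 1 animal, 15 did not pass (exact permutation test, adjusted p = 0.0769 to 0.106), and the other, which left out MI 5, the animal opposite to the rest, gave -0.60 (0.0028). The ratio depended on the probe sets of SLC2A4, which disagreed. With these averaged the difference over all 16 animals was -0.56 and passed (exact permutation test, adjusted p = 0.00559).

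The ratio of GOT1 to GOT2 ran from -0.72 to -0.37 in MI (median -0.48) and from -0.49 to -0.087 in Sham (median -0.36). The difference was -0.18 (exact permutation p = 0.00870, adjusted p = 0.0580), and it passed without MI 2 (-0.20, 0.0434) or without Sham 2 (-0.20, 0.0364) and did not in the other 14 fits that left out 1 animal (0.0615 to 0.106). Permuted within the array sets, both ratios had an adjusted p of 0.0545 by the exact test, and in set A alone they differed by -0.29 and -0.17 (exact permutation test, adjusted p = 0.36 and 0.341). With the animal number as a block, both had an adjusted p of 0.352 by an exact test over swaps within same-numbered animals. IDH1 to IDH2 came next, with a difference of 0.27 (exact permutation test, adjusted p = 0.667). Over all arrays, ratios between tissue isoforms were nearer 0: -0.029 for PFKM to PFKL, 0.031 for PFKM to PFKP, 0.082 for ENO1 to ENO3 and -0.065 for LDHA to LDHB (exact permutation test, adjusted p from 0.843 to 0.892). In set A alone they were, in the same order, -0.11, -0.071, 0.20 and 0.098 (exact permutation test, adjusted p from 0.351 to 0.772). SUCLA2 to SUCLG2 and MDH1 to MDH2 differed by 0.11 and 0.044.

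**Figure D5:**
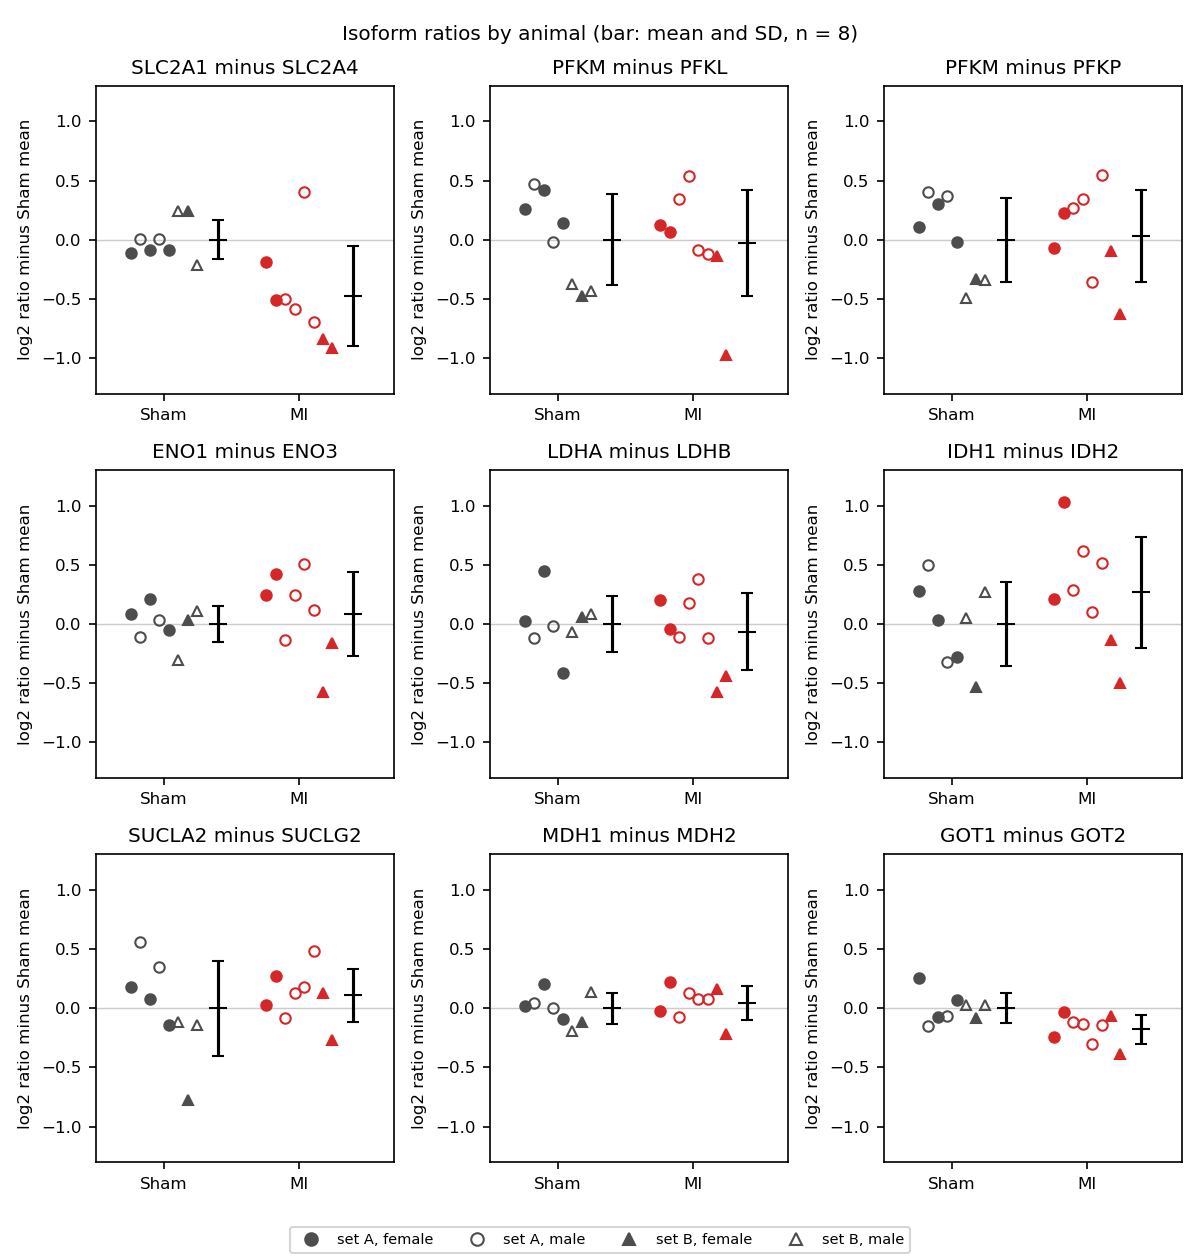
Log2 ratio of 9 isoform pairs in every animal (y axis, relative to the Sham mean of that pair), with circles for array set A, triangles for set B, filled symbols for females, open symbols for males and bars for the mean and SD of 8 animals. For SLC2A1 to SLC2A4, 7 of 8 MI animals lie below 0 and MI 5 above it; for GOT1 to GOT2 all 8 MI animals lie below 0.

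Sex was part of the design, and the difference between MI and Sham was compared between females and males. Of the 39 genes 0 had an interaction passing in limma, as did 0% of all probe sets, and at an unadjusted p under 0.05 there were 4 (10.3%) against 5.68% of all probe sets. They were DLST, PYGM, ALDOC and SLC2A1, with interactions (female minus male difference) of 0.56, 0.91, 0.82 and 0.55 and an adjusted p of 0.794 each. PYGM, for example, averaged 10.94 in MI females (10.78 without MI 7) and 10.58 in Sham females, and 10.59 in MI and 11.14 in Sham males. By the labels set B holds 2 of the 4 Sham males and 0 of the 4 MI males, and MI 7, counted here as female, has the EIF1AY level of the males. With the set as a block the 4 interactions were 0.28, 0.43, 0.38 and 0.32 (unadjusted p from 0.0975 to 0.207 by limma). Without MI 7 and with the block they were 0.26, 0.40, 0.31 and 0.31 (unadjusted p from 0.125 to 0.255 by limma). With the set as a block 2 other genes of the list had an unadjusted p under 0.05 by limma, and neither passed. They were IDH3A (0.89, unadjusted p = 0.0364) and SUCLG2 (-0.38, unadjusted p = 0.0408). Within females 0 of the 39 genes passed between MI and Sham, where 2.85% of all probe sets did (1.58% higher and 1.28% lower in MI), and within males 0, where 3.4% did (1.76% higher and 1.64% lower).

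Female against male over both groups, 0 of 39 genes passed in limma, where 0.0583% of all probe sets did (0.0292% in each direction), and 2 had an unadjusted p under 0.05, where 3.11% of all probe sets did. PGK1, an X-linked gene, differed by -0.18 (female minus male) and ME1 by -0.33 (adjusted p = 0.998 for both by limma). IDH3G, the other X-linked gene of the list, differed by 0.050. MI 7 enters here as labelled.

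Around these genes, 98 others of the same pathways were listed and 66 were measured. Of the 66, 1 rose and 2 fell, 4.55% against the 10.5% of all probe sets. OGDHL, a second gene for the first subunit of a 2-oxoglutarate dehydrogenase complex, ran from 4.24 to 4.84 in MI (median 4.73) and from 3.83 to 4.26 in Sham (median 4.06). It rose by 0.63 (adjusted p = 0.000254; 7 of 8 MI animals exceeded every Sham animal) and by 0.60 in set A (0.00160). Every OGDHL signal, however, lay below the background of 4.99, so the size of the rise is not well measured. OGDH itself did not pass.

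PC, pyruvate carboxylase, which refills oxaloacetate, fell by 0.57 (adjusted p = 0.000480) and was the only 1 of 11 genes of pyruvate entry to pass; all 8 MI animals were below all Sham animals. PDK4, which inactivates pyruvate dehydrogenase by phosphorylation, had a difference of 0.71 (adjusted p = 0.198) over all arrays and 0.78 with the set as a block (0.124). It was 1.32 in set A, where it passed (adjusted p = 0.0409), and -0.061 in set B (0.933). By limma 0 of 9 further glycogen genes passed, and 5 (55.6%) had an unadjusted p under 0.05, against 23.6% of all probe sets. PHKB, a phosphorylase kinase subunit, differed by 0.29 (adjusted p = 0.0571) with all 8 MI animals above the Sham mean, and PGM2 by 0.54 (adjusted p = 0.0775); PGM2 passed with the set as a block (adjusted p = 0.0409) and in set A (0.0273), and differed by 0.033 in set B (0.968). Of 13 other glucose carriers and glycolytic genes 0 passed (0 at an unadjusted p under 0.05), led by PFKFB4 at 0.15 (adjusted p = 0.259). Of 12 other cycle genes OGDHL alone passed, and SDHA, a succinate dehydrogenase subunit, differed by -0.23 (adjusted p = 0.183).

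Among 7 pentose phosphate and hexosamine genes, limma passed 0 (1 at an unadjusted p under 0.05), led by TALDO1, transaldolase, at -0.21 (adjusted p = 0.149) and followed by TKT, transketolase, at 0.18 (adjusted p = 0.25). Among 14 regulators of fuel use MEF2A, a muscle transcription factor, fell by 0.30 (adjusted p = 0.0341). When 1 animal at a time was left out, MEF2A passed in the 4 fits that dropped MI 4, MI 8, Sham 7 and Sham 8 and in no other. PRKAG1, a subunit of AMP-activated kinase, differed by -0.17 (adjusted p = 0.260).

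Markers of other cells moved in part in the same samples. Over all probe sets 10.5% passed, 5.39% higher and 5.14% lower. Of 10 measured T and NK cell markers 4 rose (CD3D, CD247, CD8B and IL7R) and 1 fell (CD4), of 7 macrophage and monocyte markers 1 rose (CD14), of 4 neutrophil markers 1 (MMP9), of 4 erythroid markers 2 (HBM and AHSP), of 9 skeletal muscle markers 1 (MYH2), and of 6 adipocyte markers 2 rose (ADIPOQ and PPARG) and 1 fell (RETN). Of 7 fibroblast, 9 endothelial and 5 smooth muscle markers, limma passed 0 (0, 1 and 0 at an unadjusted p under 0.05). The summed level of the T and NK list ran from 8.71 to 9.42 in MI and 8.85 to 9.51 in Sham, and that of the fibroblast list from 13.71 to 14.26 and 13.84 to 14.70. It ran from 10.97 to 11.89 in MI and 11.19 to 11.52 in Sham for the macrophage and monocyte list. For the erythroid list it ran from 8.91 to 9.98 in MI and 8.75 to 9.38 in Sham, and for the adipocyte list from 12.77 to 13.07 in MI and 12.36 to 13.17 in Sham. For the neutrophil list, with 1 of 4 genes above background, it ran from 6.29 to 6.91 in MI and 6.21 to 7.91 in Sham. For the skeletal muscle list, with 5 of 9 above background, it ran from 13.98 to 14.25 in MI and 14.04 to 14.17 in Sham. The endothelial list ran from 12.29 to 12.74 in MI and 11.94 to 13.11 in Sham and the smooth muscle list from 13.18 to 14.03 in MI and 13.07 to 13.85 in Sham. The part of these cells in the values above was not tested.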

How the data were processed

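Left ventricular RNA of 16 pigs was hybridised to Affymetrix porcine arrays. The values deposited by the authors are log2 signals, judged from their range (2.87 to 14.9) and from the same median (6.24) on every array, as after normalization between arrays; the software is not given in the sources used here. They were used as deposited. After the 124 control probe sets were set aside, 23999 were tested. Gene names came from the platform annotation and positions from RefSeq (Sscrofa11.1, 38 of 39 genes found). GAPDH was represented by its brightest probe set that is no control.

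limma 3.58.1 in R 4.3.3 was fitted with 1 coefficient for each combination of group and sex. Tests were two-sided, with Benjamini-Hochberg adjustment over 23999 probe sets, and were checked on simulated data. The simulated noise was independent and held no difference between array sets, so the check does not cover such a difference. Isoform ratios were compared by exact permutation (numpy 2.4.6). The number of animals limits precision. The gene list, the lists around it and the alternatives were chosen with earlier results of these data known; the comparison of female with male was added later. Genes of the list were described with values per group if they passed in any comparison or any fit with the set as a block, or were among the 3 of lowest p of their step; of each other list, those passing and at most 2 of lowest p were named.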

Additional observations from a re-analysis of the deposited data

Results flagged for a closer look

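In groups of 8 animals, a gap test for a sample far from the others (Dixon's, at 95%) was run on each of the 39 genes in MI and in Sham, 78 in all, and 3 stood out, where chance alone gives about 1 in 20. IDH3A in Sham 7, the array with the highest 3' excess of the GAPDH controls, was 9.34, against 10.84 to 11.35 in the other Sham animals. MDH1 in MI 6 was 13.79, against 13.44 to 13.59 in the other MI animals. ME1 in MI 5 was 6.35, against 5.08 to 5.68. Among 15 probe sets not used for the comparisons, the dimmest of SLC2A4 was higher in MI by 0.50, while the brightest, used above, differed by 0.14.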

How the results depend on the processing

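Of 39 genes 0 passed between MI and Sham, and the count stayed 0 without any 1 animal, under other scalings and filters, with an intensity trend, and in set A or set B alone. It was 1 with the array set as a block (SLC16A3), 1 with array weights and 1 with the replicate block by animal number (SLC2A1 in both), and 2 without MI 7 and with the array set as a block (PFKL, SLC16A3). Whether the numbers pair the animals cannot be told here. In their deviations from the group mean, same-numbered animals correlated at -0.070 to 0.46, above 0.1 in 4 of 8. Of the 8 MI animals, 2 were closest to their own number. Sex and array set were not removed from these values. Across 1216 results for single genes, 5 newly passed, 93 uncalled differences in 25 genes changed sign without passing, and 1118 kept their sign and call. The interaction with sex stayed at 0. Of 66 other pathway genes 3 passed. That count was 2 to 4 without any 1 animal, 6 in set A, 5 without MI 7 and with the block, 5 with array weights, 5 at an adjusted p under 0.1, 1 among the 16000 brightest or the probe sets above background, and 0 in set B. Isoform ratios passing were 0, 0 to 1 without any 1 animal, 2 with probe sets of a gene averaged and 2 at an adjusted p under 0.1. Those 2 were SLC2A1 to SLC2A4 and GOT1 to GOT2 in both cases. GOT1 and GOT2 have 1 probe set each, so averaging left their ratio and its exact permutation p of 0.00870 unchanged. Its adjusted p moved to 0.0392 only because the p of SLC2A1 to SLC2A4 fell in the same adjustment.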
